A study of Mus musculus with 4 samples.

Results

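The pallial quiescent cells of the dorsal ventricular-subventricular zone (V-SVZ) were compared between P2 and P22, the first and the last age of a postnatal series with P12 between them. The V-SVZ is the germinal layer along the lateral ventricle, and its dorsal wall was microdissected from OF1 wild-type mice of Charles River and profiled by 10x droplet sequencing, whose tags on single RNA molecules (UMIs) are what is counted. There was 1 library at P2, 1 at P22 and 2 at P12 (replicates 1 and 2), the animals received no treatment, and the labels give all of them as male. The study's methods state that mice were pooled by time point and that a female entered the P2 pool. Members were chosen by their own UMIs: a cell was a member if it held at least 2 UMIs of Slc1a3, at least 1 UMI of Emx1 or Tfap2c, and no UMI of Gsx2, Six3, Egfr, Mki67, Top2a, Foxj1 or Dcx, among cells with over 2000 and under 8000 detected genes and under 10% mitochondrial UMIs. This gave 171 members of 4027 cells at P2 and 149 of 4230 at P22, and the same gate held 1123 of 7004 cells in P12 replicate 1 and 698 of 4596 in P12 replicate 2. In all, 2141 of 19857 cells were members. With 1 library at P2 and at P22 no test between these ages was possible, and every P22 to P2 value below describes these libraries.

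Quiescent neural stem cells (qNSCs) are the astrocyte-like descendants of embryonic radial glia that stay in the wall of the ventricle and divide rarely. Emx1 marks the pallial, cortical origin of such cells, Gsx2 and Six3 the subpallial origin, and Slc1a3 encodes the glial glutamate transporter GLAST, which radial glia, astrocytes and qNSCs share. Bone morphogenetic protein (BMP) signalling, read out by the Id genes, is known to hold neural stem cells in quiescence, while epidermal growth factor receptor (Egfr) marks their activated state.

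Members were shallower at P22 than at P2. They held a median of 15934 UMIs at P2, 9251 and 11815.5 in the P12 replicates and 7720 at P22, and their summed UMIs were 2661945, 10683160, 8234305 and 1211796. Levels are therefore given in CPM, the count of a gene scaled to a fixed total of UMIs over the members of a library. On this scale 3 UMIs are worth 1.13 CPM at P2 and 2.48 at P22. Intervals are exact 95% Poisson intervals of a level, or exact conditional intervals of a log2 ratio, and cover counting error only. No barcode of a member was shared between libraries, and between 5 and 12 barcodes were shared by a pair of libraries before any filter. Xist, the RNA of the inactive X chromosome, was found in 72 of 171 members at P2 and in 1 of 149 at P22, and is itself among the genes lower at P22. A Y-linked UMI (Ddx3y, Eif2s3y, Uty or Kdm5d) was found in 85 members at P2, of which 5 also held Xist. The file headers name Cell Ranger 5.0.1 for P2 and P22 and 3.1.0 for P12, so the version did not differ between the ages compared but did differ from P12.

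Of all cells kept, the share in the gate was similar at both ends of the series and higher at P12. Members were 4.25% of cells at P2 (Clopper-Pearson 95% interval 3.64 to 4.92), 16.0% and 15.2% at P12 and 3.52% at P22 (2.99 to 4.12). The intervals of P2 and P22 overlapped, and both lay far under the P12 replicates. The gap was smaller over a narrower set of cells. Of cells without a UMI of Dcx, a neuroblast gene, or Sox10, an oligodendroglial gene, members were 15.9% at P2, 19.8% and 16.0% at P12 and 11.0% at P22. There P22 stayed lowest, while P2 was level with P12 replicate 2. For its own quantities by age the study left out neuroblasts and oligodendroglial cells, because the dissection may affect them. With every cell thinned to 5000 UMIs before the gate, the shares of all cells were 4.35%, 17.8%, 20.6% and 3.23%. The plot of shares and depths shows both denominators. The study, which labelled P2 cells by mapping them onto its P12 clusters, describes pallial qNSCs as almost missing at P2. The gate is a rule on a few genes, so its share at P2 is not a share of the study's qNSCs. Whether members at P2 and P22 are the same kind of cell was not tested.

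**Figure D1:**
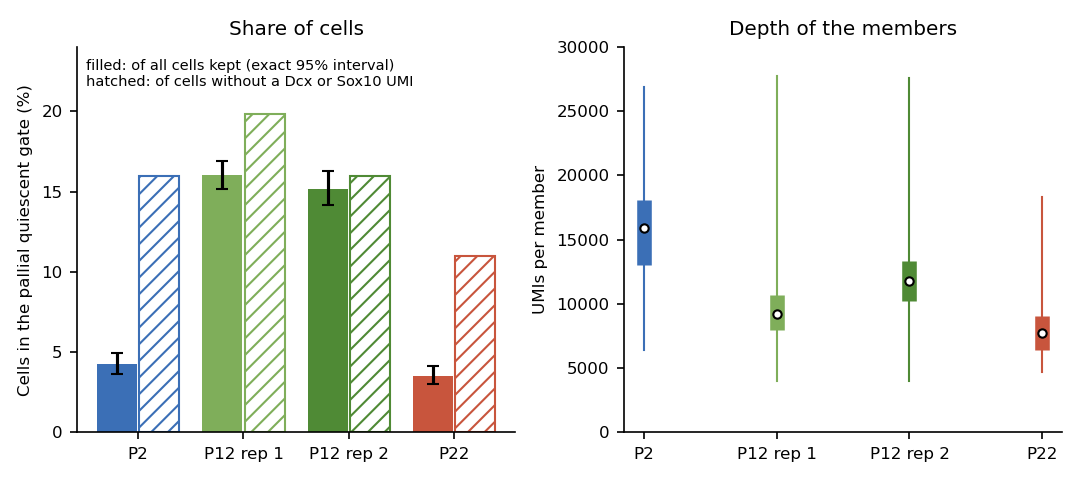
Left, share of cells in the pallial quiescent gate in each library (%), of all cells kept (filled bars, exact 95% intervals) and of cells without a Dcx or Sox10 UMI (hatched bars, no interval drawn); right, UMIs per member, with the median (circle), the quartiles (thick line) and the range (thin line). The filled bars of P2 and P22 sit at 4.25% and 3.52%, under those of P12, while the medians of UMIs per member run from 15934 at P2 to 7720 at P22.

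The exclusions removed most cells that carried the positive markers. Of 719 cells at P2 and 371 at P22 with enough Slc1a3 and with Emx1 or Tfap2c, 23.8% and 40.2% remained. Egfr was the exclusion gene found most often at P2, in 45.2% of these cells, and Top2a, a gene of dividing cells, at P22, in 29.4%. At the Slc1a3 threshold, 0 cells at P2 and 5 at P22 that met every other condition held 1 UMI, and 0 and 3 held 2 UMIs, so the cut at 2 UMIs touched few cells. Members had a median of 24 Slc1a3 UMIs at P2 and 9 at P22. The shares remaining, the shares of exclusion genes and these medians were not taken at equal depth. Members were shallower at P22, and a shallower cell meets a condition of 0 UMIs more easily. Emx1 was found in 81.9% of members at P2 and 63.8% at P22, and Tfap2c in 70.2% and 55.0%, again not at equal depth. Of members thinned to 5000 UMIs, 35.1% held Emx1 at P2 and 46.5% at P22, and 33.3% and 41.7% held Tfap2c. Both shares were thus higher at P22 once depth was equal. The levels of the genes that chose the members are given as a description. Slc1a3 stood at 1696 CPM at P2, 1750 and 1956 at P12 and 1251 at P22. Emx1 stood at 94.3, 94.4, 100.3 and 123 CPM and Tfap2c at 86.8, 140, 188 and 110 CPM in the same order.

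Genes that the gate did not use were examined for the label. Dmrta2, a transcription factor of the pallial midline, was at 83.0 CPM at P2 and 76.7 at P22 in members and at 12.9 and 0.940 CPM in cells passing the same gate with Gsx2 or Six3 in place of Emx1 and Tfap2c (39 cells at P2, 103 at P22, called subpallial quiescent cells here). Emx2, the paralog of Emx1, was at 114 and 93.3 CPM in members and at 50.1 and 60.1 CPM in subpallial quiescent cells. Hopx, a gene of quiescent and outer radial glia, was at 456 and 371 CPM in members and at 45.3 and 74.2 CPM in subpallial quiescent cells. S100b, a defining gene of mature astrocytes, was near the floor in members, at 1.13 CPM at P2, 1.31 and 3.28 at P12 and 5.78 at P22. The study's astrocyte thresholds for S100b and Aqp4 together were met by 0 of 171 and 0 of 149 members. S100b does not stand for other astrocyte genes. Summed over a list of 32 mature astrocyte genes, members held 8505 CPM at P2, 14304 and 16140 at P12 and 14361 at P22. By the rule given below, 10 of 26 tested genes of that list were higher at P22 and 2 lower. The study's thresholds for quiescent stem cells were met by 48 members at P2 (28.1%), 413 (36.8%) and 211 (30.2%) at P12 and 32 at P22 (21.5%), so most members fell outside them, and with only those members 355 genes were higher and 329 lower at P22, of which 237 and 204 are among the genes called below. Cldn5, Flt1 and Pecam1 (endothelium) and C1qa, Csf1r and Cx3cr1 (microglia) were examined as defining genes of other cells, and the lists holding them are given below.

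At P22, 505 of 6904 genes were at least 2-fold higher than at P2 and 451 were at least 2-fold lower, among genes with at least 20 CPM at P2 or P22 and with Poisson intervals of the 2 ages that did not overlap. These are 7.31% and 6.53% of genes and together 13.8%. Such genes are called higher or lower below. By the same rule 69 of 7426 genes, 0.929%, differed between the P12 replicates, which give the only replicate spread. The median log2 ratio over all 6904 genes was -0.06. Within the P2 library, the 67 members with Xist and no Y-linked UMI and the 80 with a Y-linked and no Xist UMI differed past 2-fold at 0.918% of genes. P22 was past 2-fold against each of these subsets for 405 of the 505 higher and 366 of the 451 lower genes, and the subsets are part of the sum that set the calls. The plot of P22 against P2 shows every gene. The fold at the threshold separated close neighbours, as Wls passed at a log2 ratio of 1.01 and Pik3ip1 missed at 1.00, and 44 genes past 2-fold were not called because their intervals overlapped.

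**Figure D2:**
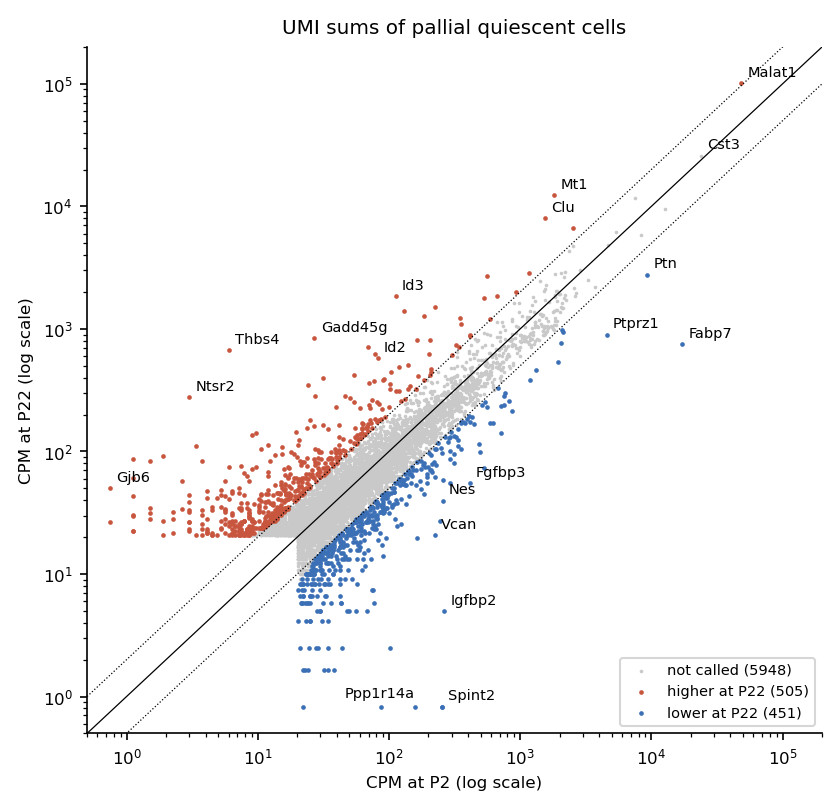
Level of each of 6904 genes in pallial quiescent cells at P2 (x axis) and P22 (y axis), in CPM on log axes, with genes at 0 UMIs drawn at 3 UMIs. The solid line is equality and the dotted lines are 2-fold; 505 genes (red) are higher and 451 (blue) lower at P22, with Thbs4 and Ntsr2 far above the lines and Fabp7, Spint2 and Ppp1r14a far below.

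Among genes lower at P22, the steepest were Spint2 and Ppp1r14a, which were present at P2 and nearly absent by P12. Spint2, a membrane inhibitor of serine proteases, was at 252 CPM at P2 (671 UMIs), 1.12 and 0.972 CPM at P12 and 0.825 CPM at P22 (1 UMI), a log2 ratio of -8.25 (-13.56 to -5.77). Ppp1r14a, an inhibitor of myosin phosphatase, was at 159 CPM at P2 (423 UMIs), 0.0936 and 0 CPM at P12 and 0.825 CPM at P22 (1 UMI), a log2 ratio of -7.59 (-12.90 to -5.10). P2 stood apart from the other 3 libraries for both genes. They are neighbours on chromosome 7 of GRCm38. Spint2 lies on the minus strand at chr7:29256323-29281912 and Ppp1r14a on the plus strand at chr7:29289308-29293801, with 7395 bases between the gene models. Subpallial quiescent cells showed the same order, with 210 CPM of Spint2 at P2 and 0 CPM in the other libraries, and 246 CPM of Ppp1r14a at P2 and 3.76 at P22. Thinned to 5000 UMIs each, 67.3% of members at P2 held Spint2 against 0.694% at P22. At the same depth the share was 6.50% and 0.300% in cells with at least 2 Dcx UMIs and no Slc1a3 UMI, neuroblast cells that served as a level for free RNA (median depths before thinning 11473 UMIs at P2 and 10127 at P22). Slc1a3 is itself an RNA of members, so leaving out cells that hold it can leave out those with most free RNA. The neuroblast levels here and below may therefore be too low for free RNA.

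The promoters of both genes are shown because they flank this gap on opposite strands. Each sequence is the 250 bases before the RefSeq start of the gene, 5′ to 3′ on the strand of the gene (GRCm38.p6). Capitals mark GGCGCC, the palindromic GC-rich motif bound by the BMP-regulated SMADs, and TATAA on either strand, the core of the TATA box, and neither occurs in these 2 windows.
Spint2 (chr7:29281978-29282227, minus strand): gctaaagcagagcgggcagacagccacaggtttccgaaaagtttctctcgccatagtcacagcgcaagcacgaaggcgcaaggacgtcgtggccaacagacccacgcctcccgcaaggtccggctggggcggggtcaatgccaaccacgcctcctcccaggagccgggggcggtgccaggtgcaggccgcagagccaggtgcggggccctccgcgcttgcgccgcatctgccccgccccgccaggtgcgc
Ppp1r14a (chr7:29289070-29289319, plus strand): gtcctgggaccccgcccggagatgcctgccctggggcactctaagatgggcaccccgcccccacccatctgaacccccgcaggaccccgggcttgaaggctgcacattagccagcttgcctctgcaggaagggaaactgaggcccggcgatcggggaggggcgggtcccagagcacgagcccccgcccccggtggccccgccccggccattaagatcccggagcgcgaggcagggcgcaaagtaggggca
Both windows are GC-rich (69.6% and 71.2%, against a median of 60.4% over 7018 promoters of 5464 genes tested) and hold 24 and 18 CpG dinucleotides (median 17).

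Fabp7, the brain lipid-binding protein that is a hallmark of radial glia, was at 17104 CPM at P2 (16948 to 17262), 1149 and 1410 at P12 and 749 at P22 (701 to 800), 22.8-fold lower at P22. Both P12 replicates lay near the P22 level. Of members thinned to 5000 UMIs, 100% held Fabp7 at P2 and 84.7% at P22, with a median of 85 UMIs against 2, and of neuroblast cells thinned likewise 45.2% and 16.5%. Subpallial quiescent cells went from 11009 to 955 CPM. Neuroblast cells held 198 and 60.1 CPM.

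Several other genes of this group encode secreted proteins that bind growth factors or lie in the matrix. Igfbp2, a carrier of insulin-like growth factors, was at 263 CPM at P2, 3.84 and 2.79 at P12 and 4.95 at P22. Igfbp4, a second carrier, was at 75.9, 12.0, 12.6 and 7.43 CPM. P12 stood nearer to P22 than to P2 for both. Fgfbp3, which binds fibroblast growth factors, was at 413, 36.8, 29.8 and 55.3 CPM, with P12 below both ends. Vcan, the chondroitin sulfate proteoglycan versican, was at 224, 60.4, 90.5 and 20.6 CPM. Fstl5, a follistatin-like protein, was at 101, 9.27, 7.17 and 2.48 CPM. For these 5 genes the fold from P2 to P22 ranged from 7.47 for Fgfbp3 to 53.1 for Igfbp2. Angptl4, an inhibitor of lipoprotein lipase, was at 68.0, 14.1, 23.9 and 4.95 CPM, and Lipg, an endothelial-type lipase, was at 87.5, 16.0, 13.1 and 0.825 CPM (1 UMI at P22). S1pr3, a receptor for sphingosine 1-phosphate, was at 55.6, 27.1, 35.5 and 4.95 CPM, so that P12 still lay nearer to P2. S1pr3 was at 1.62 CPM in subpallial quiescent cells at P2, against 55.6 CPM in members. The remaining genes of the 15 were Trim47, Tbc1d16, the urea transporter gene Slc14a2 and Emid1, with folds of 13.3, 10.1, 8.94 and 8.27.

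Among genes higher at P22, Thbs4 stood first. Thbs4 encodes thrombospondin 4, a secreted matrix protein known from V-SVZ stem cells and astrocytes, and was at 6.01 CPM at P2 (3.44 to 9.76, 16 UMIs), 663 and 758 at P12 and 676 at P22 (630 to 724, 819 UMIs), 112-fold higher at P22. P12 and P22 were alike and P2 stood apart. Of members thinned to 5000 UMIs, 1.75% held Thbs4 at P2, 73.5% and 80.9% at P12 and 79.9% at P22, and of neuroblast cells thinned likewise 0.0575% at P2 and 0.824% at P22. In subpallial quiescent cells Thbs4 was at 1.62 CPM at P2, 293 and 258 at P12 and 273 at P22. The gene lies at chr13:92751590-92794818 on the minus strand. Its promoter is shown as that of the gene with the highest ratio.
Thbs4 (chr13:92794819-92795068, minus strand): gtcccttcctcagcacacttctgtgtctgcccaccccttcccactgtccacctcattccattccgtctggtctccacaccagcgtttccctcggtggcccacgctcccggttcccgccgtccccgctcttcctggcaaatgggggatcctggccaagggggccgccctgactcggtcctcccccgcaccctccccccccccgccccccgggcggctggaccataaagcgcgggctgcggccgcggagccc
Neither motif occurs in this window, which has a GC content of 70.8%.

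Known astrocyte genes among the 15 highest were Ntsr2, Gjb6, Fam107a and Gpr37l1, which did not rank together. By ratio 1700019D03Rik (76.9-fold) ranked between Ntsr2 and Gjb6. Gpr37l1 (15.1-fold) and Fam107a (14.6-fold) were near the end of the 15. Ntsr2, a neurotensin receptor of astrocytes, was at 3.01 CPM at P2, 84.2 and 114 at P12 and 278 at P22, 92.5-fold higher. Gjb6, the gap junction protein connexin 30, was at 0.751 (2 UMIs), 30.0, 51.2 and 50.3 CPM, a log2 ratio of 6.07 (4.15 to 9.14). Fam107a, an actin-associated protein of astrocytes and outer radial glia, was at 24.04, 341, 368 and 350 CPM. Fam107a stood at the P22 level at P12, while Ntsr2 lay between both ages in both replicates. Gpr37l1, a receptor of astrocytes, was at 9.02, 78.2, 66.4 and 136 CPM. Fxyd7, a regulator of the sodium pump, was at 1.503, 15.4, 15.3 and 84.2 CPM, and Ppp1r1b, which encodes the phosphatase inhibitor DARPP-32, was at 1.88, 38.9, 39.1 and 91.6 CPM. For these 3 genes both P12 replicates lay between P2 and P22.

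A gene of growth arrest and less studied genes were in the same group. Gadd45g, a growth arrest and DNA damage gene, was at 27.0 CPM at P2, 581 and 344 at P12 and 841 at P22, 31.1-fold higher. Urah, a hydrolase of urate breakdown, was at 3.76, 22.3, 34.1 and 84.2 CPM. The uncharacterised 1700019D03Rik was at 1.13 (3 UMIs), 12.5, 13.4 and 86.6 CPM. Gm10320 had 0 UMIs at P2, 24.7 and 56.8 CPM at P12 and 60.2 CPM at P22, at least 53.5-fold higher against 3 UMIs, and its level in the P22 neuroblast cells was alike at 56.6 CPM against 0.0436 CPM at P2.

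Mbp, which encodes a myelin protein, was also among the 15, at 2.63 CPM at P2, 6.65 and 10.4 at P12 and 56.9 at P22. In the 43 endothelial and microglial cells of the P22 library, which should lack it, Mbp stood at 878 CPM, and in neuroblast cells at 110 CPM. The part of free RNA in the member level was not tested. The plot of the named genes shows both groups.

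**Figure D3:**
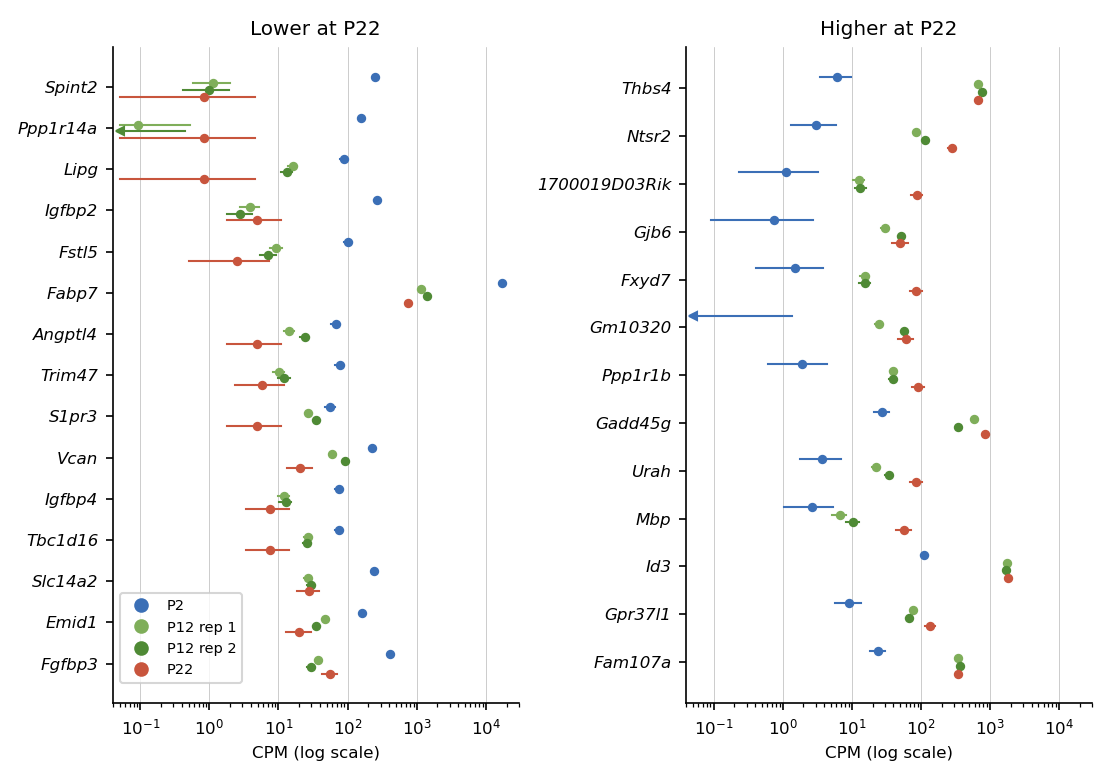
Levels of named genes with the lowest (left) and the highest (right) ratio of P22 to P2 in the 4 libraries, in CPM on a log axis, with exact 95% Poisson intervals (lines). Triangles at the left edge mark 0 UMIs, and interval ends below 0.05 CPM are drawn at 0.05. P2 (blue) is apart from the other libraries for Spint2, Ppp1r14a, Igfbp2, Thbs4 and Id3.

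Outside the markers of other cells, the BMP response had the highest median of the lists. For the counts of every list here and below, the shares over all genes tested were 7.31% higher and 6.53% lower. Counts near these shares are not read as results about a list. Of 7 tested genes of the BMP response 4 were higher at P22 and 0 lower, with a median log2 ratio of 1.54 (all genes tested, -0.06). Id3, an inhibitor of proneural transcription factors and a direct BMP target, was at 113 CPM at P2 (100 to 126), 1748 and 1725 at P12 and 1849 at P22 (1774 to 1928), 16.4-fold higher. Id2, of the same family, was at 82.3, 650, 721 and 582 CPM. Id1 was at 83.4, 347, 337 and 242 CPM. P12 lay close to P22 for Id3 and above it for Id1 and Id2. Id1 stood at 251 CPM in the endothelial and microglial cells of P22, where it is a known endothelial gene, and Id3 at 203 CPM there. Msx1, a homeobox target of BMP, was at 8.64, 19.4, 28.2 and 31.4 CPM. Id4, at 663, 1326, 1125 and 1134 CPM, stayed under 2-fold with a log2 ratio of 0.77 (0.67 to 0.88). The Notch and BMP target Hey1 was at 89.0 and 57.8 CPM and the BMP pseudoreceptor gene Bambi at 25.9 and 25.6 CPM at P2 and P22. At equal depth of 5000 UMIs, 25.7% of members held Id3 at P2 and 78.5% at P22, against 2.42% and 4.42% of neuroblast cells. In subpallial quiescent cells Id3 was at 66.3 CPM at P2, 370 and 199 at P12 and 603 at P22.

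The promoters of Id2 and Id3 are shown as those of the BMP targets with the highest ratios for which RefSeq gave a sequence. Capitals mark the same motifs as above.
Id2 (chr12:25096093-25096342, minus strand): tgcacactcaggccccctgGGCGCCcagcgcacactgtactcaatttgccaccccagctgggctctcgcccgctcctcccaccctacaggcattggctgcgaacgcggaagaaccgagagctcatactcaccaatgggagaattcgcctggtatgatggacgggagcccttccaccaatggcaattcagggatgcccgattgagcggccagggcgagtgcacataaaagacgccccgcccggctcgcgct
Id3 (chr4:136143572-136143821, plus strand): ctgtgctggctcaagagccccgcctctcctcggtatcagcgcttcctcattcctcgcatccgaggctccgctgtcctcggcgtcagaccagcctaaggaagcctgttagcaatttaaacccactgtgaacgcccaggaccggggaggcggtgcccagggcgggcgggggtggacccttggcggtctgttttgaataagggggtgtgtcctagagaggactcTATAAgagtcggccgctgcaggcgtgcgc
The Id2 window holds 1 GGCGCC and the Id3 window 1 TATAA. The first motif, GGCGCC, occurs in 9.59% of all 32851 promoters of this length, in 17.4% of those of the genes tested, in 14.3% of those of higher genes and in 16.0% of those of lower genes. TATAA occurs in 22.8%, 11.7%, 15.1% and 14.0% of the same sets.

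The receptors and ligands of this family moved less evenly. Of 7 tested genes 1 was higher and 2 were lower, with a median log2 ratio of 0.25. Inhba, which encodes the activin A subunit, was at 4.51 CPM at P2, 56.2 and 86.6 at P12 and 35.5 at P22. Nog, the BMP antagonist noggin, was at 48.1, 8.42, 6.80 and 13.2 CPM, and the ligand gene Tgfb2 was at 228, 91.2, 97.9 and 77.6 CPM. Both were lower at P22. The type I receptor genes Bmpr1a and Bmpr1b were highest at P12, at 166 and 238 CPM and at 82.3 and 120 CPM, between ends of 67.2 and 82.5 CPM and of 36.1 and 48.7 CPM, and neither differed past 2-fold between P2 and P22.

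The lists are shown by gene in the plot of list members. Radial glia and neonatal genes were lower at P22 for 10 of 21 tested genes and higher for 0, with a median log2 ratio of -0.76. Nes, the intermediate filament nestin, was at 256 CPM at P2, 98.0 and 113 at P12 and 39.6 at P22. Ptprz1, a receptor phosphatase of radial glia, was at 4557, 1765, 2213 and 899 CPM, and its ligand gene Ptn, pleiotrophin, at 9319, 4006, 4359 and 2781 CPM. For these 3 genes both P12 replicates lay between the ends. Tnc, the matrix protein tenascin C, was at 313, 121, 309 and 80.0 CPM, and its P12 replicates differed by a log2 of 1.35. Cd24a was at 62.7, 9.73, 8.62 and 10.7 CPM and is also a gene of neuroblasts, which held 891 CPM at P2 and 819.7 at P22. Vim, Dbi, Hes5, Pax6 and Sox2 did not differ past 2-fold between P2 and P22.

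**Figure D4:**
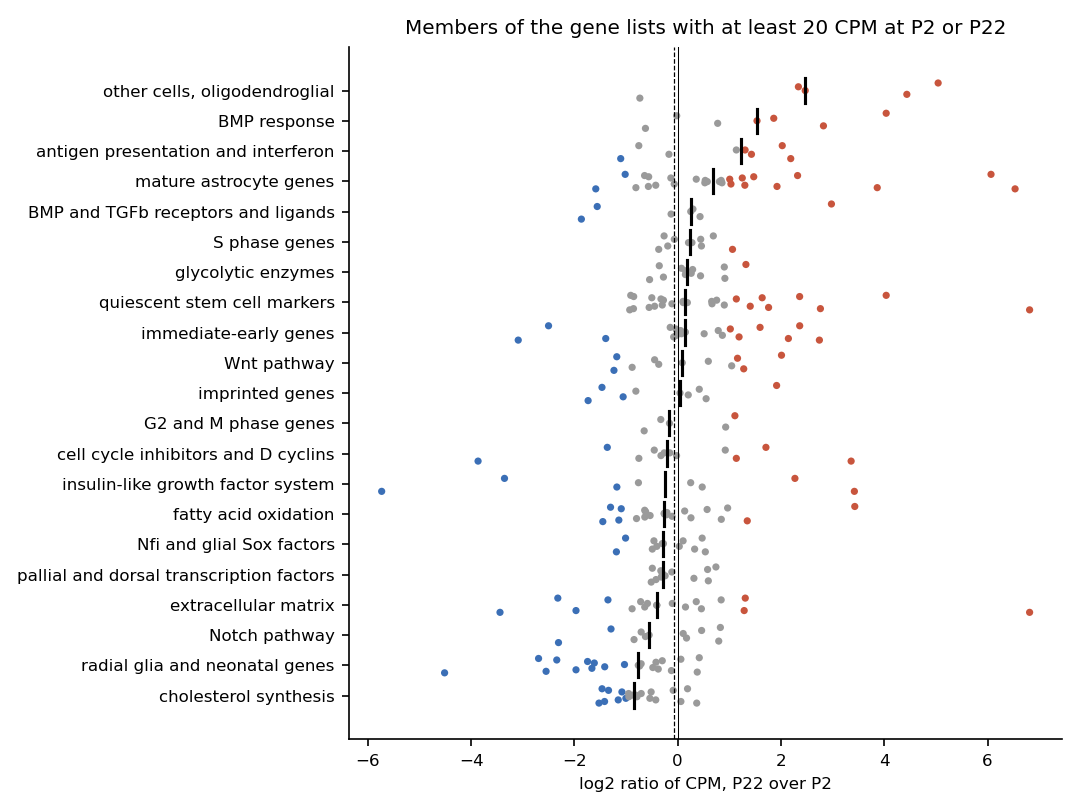
Log2 ratio of P22 to P2 for each tested gene of the lists with at least 5 tested genes (red higher, blue lower, grey not called), with the median of the list (bar), 0 (solid line) and the median of all genes tested, -0.06 (dashed line). BMP response has a median of 1.54 and radial glia and neonatal genes one of -0.76.

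Genes of quiescent stem cells were higher at P22 for 8 of 26 tested and lower for 0, with a median log2 ratio of 0.15, and 2 of 27 tested were lower with cells thinned to 5000 UMIs or without members holding oligodendroglial UMIs. Besides Thbs4 and Id3 these were Clu, Cpe, Gfap, Mt1, Mt2 and Foxo3. Clu, the secreted chaperone clusterin, was at 1555 CPM at P2, 4912 and 3823 at P12 and 7987 at P22. Mt1, a metallothionein, was at 1828, 5153, 3745 and 12407 CPM, and Gfap, the astrocytic intermediate filament, at 355, 1030, 1074 and 1104 CPM. Foxo3, a transcription factor that maintains stem cell quiescence, was at 24.4, 44.1, 49.7 and 53.6 CPM. Clu and Mt1 were at their highest level at P22, whereas Gfap was already there at P12. Hopx was not called, at 456, 618, 656 and 371 CPM, and Sox9, a factor of glial fate, was at 957, 2159, 2073 and 1029 CPM. Vcam1, Prom1 and Nr2e1 had log2 ratios of -0.85, -0.91 and -0.93 and were not called.

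Mature astrocyte genes were higher at P22 for 10 of 26 tested and lower for 2, with a median log2 ratio of 0.69. Slc1a2, the glutamate transporter GLT-1, was at 665 CPM at P2, 3233 and 4408 at P12 and 1846 at P22. Gja1, connexin 43, was at 163, 844, 1163 and 813 CPM, and Glul, glutamine synthetase, at 1166, 2121, 1848 and 2872 CPM. Slc1a2 was thus highest at P12. The lower genes were Aldh1l1, a folate enzyme used as an astrocyte marker, at 171, 58.3, 79.4 and 56.9 CPM, and Slc4a4, a bicarbonate transporter, at 120, 134, 167 and 59.4 CPM. Aqp4, the water channel of astrocyte end feet, was at 187, 227, 274 and 126 CPM and was not called.

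Transcription factors of regional identity were called in neither direction. Of 13 tested pallial and dorsal transcription factors 0 were higher and 0 lower, against 13.8% of all genes. With so few genes, 0 is near that share. The gate required Emx1 or Tfap2c and no Gsx2 or Six3 at every age, so the levels of such factors are not independent of it. Lhx2, a selector gene of cortical identity, was at 400.5 CPM at P2, 374 and 452 at P12 and 319 at P22. The largest departure was Rorb, at 180, 437, 475 and 301 CPM. The study reports Rorb as higher in its subpallial than in its pallial cluster of quiescent cells, so Rorb is no marker of pallial identity here. Of 12 tested genes in the list of Nfi and glial Sox factors 0 were higher and 2 lower. These were Sox21, at 184, 281, 276 and 80.9 CPM, and Tcf7l1, a TCF factor and neither Nfi nor Sox, at 31.6, 36.3, 43.1 and 15.7 CPM. Nfia, Nfib and Nfix, regulators of gliogenesis and quiescence, had log2 ratios of -0.46, -0.40 and -0.28.

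Notch pathway genes were higher at P22 for 0 of 11 tested and lower for 2, against 7.31% and 6.53% of all genes tested. The median log2 ratio of the list was -0.55. Hes1, a repressor downstream of Notch, was at 561 CPM at P2, 757 and 493 at P12 and 229 at P22. Notch3, a receptor, was at 32.7, 12.4, 19.7 and 6.60 CPM. Both were lower at P22. Hes5, the other main effector, was at 1201, 1587, 1769 and 735 CPM with a log2 ratio of -0.71. In subpallial quiescent cells Hes1 went the other way, from 307 to 396 CPM.

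Of 11 tested Wnt pathway genes 3 were higher and 2 lower, with a median log2 ratio of 0.09. Axin2, a feedback target of Wnt, was at 18.0 CPM at P2, 54.5 and 101 at P12 and 43.7 at P22. The receptor genes Fzd2 and Fzd5 were higher and Fzd3 and the ligand gene Wnt7a lower. Fzd2 was at 210 and 469 CPM, Fzd5 at 6.76 and 27.2, Fzd3 at 148 and 65.2 and Wnt7a at 23.3 and 9.90, at P2 and P22. Opposite directions thus occurred among receptors of 1 family.

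The gate used Mki67 and Top2a, so the levels of other division genes are not independent of it. Of 12 tested cell cycle inhibitors and D cyclins 3 were higher and 2 lower. Cdkn1a, the inhibitor p21, was at 5.63 CPM at P2, 17.8 and 14.1 at P12 and 57.8 at P22, with 260 CPM in the endothelial and microglial cells of P22. Cdkn2c and Cdkn2d, INK4 inhibitors, were at 13.5 and 29.7 CPM and at 15.4 and 50.3 CPM at P2 and P22. Cdk6 was at 24.04, 9.64, 7.04 and 1.65 CPM (2 UMIs at P22), a log2 ratio of -3.86 (-6.94 to -1.95), and Ccnd1 at 42.5, 9.83, 8.87 and 16.5 CPM. Cdkn2c and Cdkn2d were thus higher, and Cdk6 and Ccnd1 lower, at P22. The other 7 of the 12 were not called, and the median log2 ratio of the list was -0.21. Without members holding oligodendroglial UMIs 2 were higher and 3 lower, and with cells thinned to 5000 UMIs 2 and 2. Of 10 tested S phase genes 1 (Cdca7) was higher, and 0 were with TMM-adjusted totals or median-of-ratios scaling. Of 5 tested G2 and M phase genes 1 (Tubb4b) was higher. In lists this small a count of 1 does not stand apart from the 7.31% of all genes called higher.

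Sterol synthesis genes were called lower at P22 and in no case higher. Of 20 tested genes of cholesterol synthesis 7 were lower and 0 higher, with a median log2 ratio of -0.84. Hmgcs1, which makes the first committed precursor, was at 760 CPM at P2, 337 and 372 at P12 and 300.4 at P22. Fdps, farnesyl diphosphate synthase, was at 286, 46.2, 44.1 and 129 CPM. Fdps was lowest at P12. Msmo1 went against the list, at 313, 215, 196 and 404 CPM, and was not called. Of 21 tested genes of fatty acid oxidation 2 were higher and 4 lower, against 7.31% and 6.53% of all genes tested. Acsl3, a fatty acyl-CoA ligase, was higher, at 129, 804, 858 and 1391 CPM, and its gene model overlaps that of Utp14b, which was also called higher. Cpt1a, the entry step of mitochondrial oxidation, was lower, at 60.9, 54.5, 81.2 and 22.3 CPM. Of 13 tested glycolytic enzymes 1 was higher (Pfkm, 19.2 to 47.9 CPM) and 0 lower, near the shares over all genes tested (7.31% and 6.53%). Aldoc, aldolase C, was at 2535 and 4739 CPM, a log2 ratio of 0.90.

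Immediate-early genes, which respond within minutes to stimulation, were higher at P22 for 6 of 20 tested and lower for 3, with a median log2 ratio of 0.15. Fos was at 4642 CPM at P2, 8248 and 7094 at P12 and 4826 at P22, and Fosb at 390, 1826, 1746 and 352 CPM. Both were alike at P2 and P22. Junb was at 225, 2408, 1643 and 1504 CPM and Zfp36 at 70.6, 616, 503 and 363 CPM, and both were higher at P22. Nr4a1 was lower, at 65.4, 174, 259 and 11.6 CPM. In the endothelial and microglial cells of P22 Junb stood at 2599 CPM and Zfp36 at 1341 CPM, and the part of free RNA in the member levels was not tested.

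Matrix genes were called in both directions, 3 higher and 4 lower of 18 tested, against 7.31% and 6.53% of all genes tested. The median log2 ratio of the list was -0.40. Without members holding oligodendroglial UMIs 1 was higher and 3 were lower of 17 tested. The higher genes were Thbs4, Adamts1 and Col9a3, and the lower were Tnc, Vcan, Ncan and Col4a1. Ncan, the proteoglycan neurocan, was at 491 CPM at P2, 194 and 354 at P12 and 98.2 at P22. Adamts1, a protease that cleaves versican, was at 62.0, 277, 237 and 153 CPM. The proteoglycan gene Bcan, brevican, was not called, at 388 and 534 CPM.

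In the insulin-like growth factor system 2 of 8 tested genes were higher and 3 lower. Igf1, the ligand, was at 3.01 CPM at P2, 98.0 and 78.3 at P12 and 32.2 at P22. Igfbp5, a carrier, was at 558, 2674, 3594 and 2690 CPM. Against these, the carrier genes Igfbp2 and Igfbp4 given above were lower, as was Irs2, an adaptor of the receptor, at 59.7, 63.0, 78.7 and 26.4 CPM. The receptor gene Igf1r was at 49.2, 168, 191 and 58.6 CPM, highest at P12 and not called. Of 9 tested imprinted genes 1 was higher (Impact, 59.7 to 225 CPM) and 3 lower, among them Plagl1, a growth regulator, at 143, 192, 187 and 42.9 CPM, with Grb10 and Mest. Both tested juvenile growth genes, Hmga1 and Ezh2, were not called. Of 8 tested genes of antigen presentation and interferon 4 were higher and 1 lower, against 2 and 1 of 10 tested without members holding oligodendroglial UMIs. The class I genes H2-D1, H2-K1 and B2m were at 19.9, 10.1 and 15.03 CPM at P2 and at 90.8, 41.3 and 40.4 CPM at P22, while the endothelial and microglial cells of P22 held 467, 177 and 854 CPM.

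Markers of other cells were summed over members. Oligodendroglial genes stood at 201 CPM at P2, 162 and 121 at P12 and 467 at P22, and 4 of 5 tested were higher at P22, among them Olig1, Olig2 and Mbp. Few cells held most of the lineage factors, as 5 members at P22 held 109 of 121 Olig1 UMIs and 40 of 46 Olig2 UMIs. With members holding oligodendroglial UMIs left out, which removed 106 of 149 members at P22, 445 genes were higher and 431 lower, and 309 and 268 of these were shared with the full gate. Neuroblast and neuron genes stood at 187, 110, 96.2 and 187 CPM, and of 3 tested 0 were called. Ependymal genes stood at 46.2, 106, 89.99 and 88.3 CPM, with 8 of 15 at 0 UMIs at P2 and 7 at P22, and the 1 tested gene, Rsph1, was higher. Endothelial and mural genes stood at 692, 206, 227 and 228 CPM, with 7 of 12 at 0 UMIs at P2 and at P22. Most of the P2 sum was Myl9, a myosin light chain gene, at 625 CPM at P2 and 169 at P22, which was lower. Microglial genes stood at 135, 45.7, 108 and 84.2 CPM, with 10 of 11 at 0 UMIs at P2 and of 1 tested 0 were called. In P12 replicate 2 the highest member alone held 310 microglial UMIs of 892. Genes of choroid plexus, leptomeninges and blood stood between 2.48 and 9.11 CPM, and 0 were tested.

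The P12 gate lay between P2 and P22 for about as many genes in each direction. Both P12 replicates lay between the ends for 269 of 505 higher genes (53.3%) and 242 of 451 lower genes (53.7%). They lay beyond P22 for 119 higher and 62 lower genes, beyond P2 for 20 and 46, and the replicates fell on different sides of an end for 97 and 101. The position of P12 was set as 0 at the P2 level and 1 at the P22 level on the log2 scale. The median position was 0.79 over higher genes (quartiles 0.50 and 1.08) and 0.57 over lower genes (0.21 and 0.93). P12 was nearer to P22 than to P2 for 74.9% of higher and 55.7% of lower genes. By replicate the medians were 0.78 and 0.80 for higher genes and 0.59 and 0.57 for lower genes. With TMM-adjusted totals both medians came to 0.68. The gap between the directions therefore depended on the scaling.

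**Figure D5:**
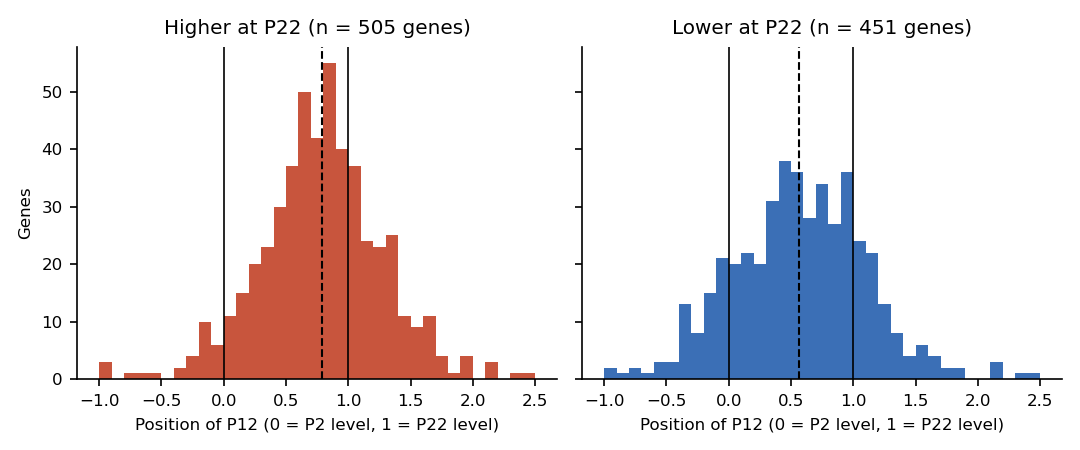
Position of P12 (mean of both replicates) between the log2 level at P2 (0) and at P22 (1) for genes higher (left, 505) and lower (right, 451) at P22, as the number of genes in bins of 0.1, with values outside the axis placed in the end bins. The dashed line is the median, at 0.79 on the left and 0.57 on the right.

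Where P12 lay outside both ends it was, with plain totals, more often above than below. Of 7932 genes with at least 20 CPM in any library, 392 (4.94%) were at least 2-fold higher in both P12 replicates than at P2 and at P22. A further 47 (0.593%) were at least 2-fold lower. These counts were not repeated with other scalings. The TMM factors, by which totals are multiplied, were 1.03 and 1.10 at P12, 0.916 at P2 and 0.964 at P22, which would lower P12 against both ends. Of 21 immediate-early genes 8 were in the first set and 0 in the second. Of 21 cholesterol synthesis genes 4 were in the second and 0 in the first. Genes outside the lists, named after their values were seen, were among them. The transcript AC160336.1 was at 1.13 CPM at P2, 391 and 385 at P12 and 3.30 at P22, and Cwc22, a splicing factor gene, at 13.5, 256, 913 and 14.0 CPM. The P12 age and the Cell Ranger version of the P12 files cannot be told apart in these comparisons, which do not touch P2 against P22.

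The age difference was also set beside that of subpallial quiescent cells. For genes higher in members, the ratio in subpallial cells was above 0 on the log2 scale for 461 of 502 genes with a value (91.8%), with a median of 1.11 against 1.52 in members. For genes lower in members it was below 0 for 400 of 447 genes (89.5%), with a median of -0.89 against -1.39. In subpallial cells 10% of 7012 genes were called by the same rule, on 39 cells at P2. The gates are exclusive but come from the same libraries, so their ratios share whatever differed between these libraries. For 7 of the 956 called genes the ratios had opposite signs with both intervals off 0. Among them, besides Hes1, were Tmem37, Car8, Gabrg1, Etv4 and Akap6, which were named after their values were seen.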

How the data were processed

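Dorsal V-SVZ cells of P2 (1 library), P12 (2) and P22 (1) were profiled by 10x Genomics version 3 chemistry. The deposited matrices hold UMI counts per gene and barcode, which the authors made with Cell Ranger (per the file headers 5.0.1 for P2 and P22, 3.1.0 for P12), and no normalization had been applied. The submitters' processing notes also name Seurat 3. From these counts, barcodes with over 2000 and under 8000 genes and under 10% mitochondrial UMIs were kept (4027 to 7004 per library), and the gate was applied to raw UMIs.

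UMIs of members were summed by library and gene and divided by the summed total (1211796 to 10683160 UMIs), giving CPM with exact Poisson intervals. A gene was called at 2-fold, at least 20 CPM in the higher library and intervals of P2 and P22 apart. Cells are not replicates and each end had 1 library, so no test was made. Per the study's methods, the P12 libraries come from independent experiments, and mice were pooled by time point. Named genes were the gate genes, the 15 called genes with the highest and the 15 with the lowest ratio among those with at least 50 CPM in the higher library (gate genes, mitochondrial genes and Xist left out), and in each list the 2 to 5 genes with the largest ratios and those best known for their role. Members and the 27 gene lists were chosen with earlier results of these data known. Sets of cytosolic ribosomal protein, mitochondrially encoded and nuclear oxidative phosphorylation genes were added after the data had been seen.

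Scrublet (in scanpy 1.11.5) called 39, 111, 4 and 46 doublets in P2, both P12 replicates and P22. At 0.0870% of cells the caller did not work in P12 replicate 2, and no cell was removed for it in the main values. Alternatives were other scalings (TMM of edgeR 4.0.16, used for factors only, and median-of-ratios), thresholds, gates, thinned cells, and genes at 25% or more of the member level in cells that should lack them left out. Python 3.11.15, numpy 2.4.6, scipy 1.17.1, pandas 2.3.3 and R 4.3.3 were used, and the calling was tested on simulated data. Promoters are from RefSeq (GRCm38.p6). Results for some genes that the naming rule selects are not reported here.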

Additional observations from a re-analysis of the deposited data

Results flagged for a closer look

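Hes1, the Notch effector, stood out because its age difference had opposite signs in the 2 kinds of quiescent cells. The log2 ratio of P22 to P2 was -1.29 in pallial and 0.36 (0.11 to 0.62) in subpallial quiescent cells. Subpallial levels were 307 CPM at P2, 562 and 608 at P12 and 396 at P22. The difference between both kinds of cells was not tested, since each age had 1 library. Of 119 called genes that are named or in a list, it was the only one with opposite signs and both intervals off 0.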

How the results depend on the processing

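No paired analysis was possible because P2 and P22 had 1 library each, so that the groups share fewer than 2 replicate numbers and no result comes from a test. Against 505 genes higher and 451 lower, the counts were 240 and 258 at 50 CPM, 150 and 84 at 4-fold, 245 and 259 without genes with RNA in endothelial and microglial cells, and 291 and 178 without genes with RNA in neuroblast cells. In these 4 settings fewer genes could be called by construction. For lower genes the endothelial and microglial level came from only 2 cells at P2 (33043 UMIs), against 43 cells at P22. The count of 259 therefore says little about free RNA at P2. TMM gave 453 and 570, and median-of-ratios 456 and 568, each with all 451 lower genes kept, and both scalings moved the median of all genes by -0.07. The position of P12 over higher genes (0.79) was 0.682 with TMM, 0.660 with median-of-ratios, 0.754 at 50 CPM, 0.749 with thinned cells, 0.822 for members of 8000 to 16000 UMIs, 0.761 with Emx1 only, 0.736 with Tfap2c only, 0.717 under the quiescent stem cell thresholds, 0.815 without Xist, 0.831 and 0.816 without genes with RNA in endothelial and microglial or in neuroblast cells, and 0.737 without members with oligodendroglial UMIs. Over lower genes (0.57) it was 0.685, 0.724, 0.661 at 50 CPM, 0.607 with means of per-cell CPM, 0.529 with no CPM filter, 0.586 at 4-fold, 0.554 at 2500 to 7500 genes, 0.683 at 8000 to 16000 UMIs, 0.540 with Tfap2c only, 0.590 under the quiescent thresholds, 0.592 without the top 5% of Scrublet scores, 0.640 without Xist, 0.604 without oligodendroglial UMIs, and 0.530 and 0.590 for P2 members with Xist or with Y-linked UMIs only. Leaving out a P12 replicate gave 0.777 to 0.803 over higher and 0.571 to 0.588 over lower genes. The cause of these moves was not tested. Shares moved to 2.91% at P22 with 2500 to 7500 genes, to 17.8% and 20.6% at P12 with thinned cells, and to 15.9% at P2, 19.8% in P12 replicate 1 and 11.0% at P22 without Dcx or Sox10 cells. The neuroblast, oligodendroglial and P2 subset alternatives were chosen after seeing the data. Of the called genes, 46.9% of higher and 45.2% of lower were called again under the quiescent thresholds, 60.8% and 61.0% with thinned cells (388 and 386 called), and 61.2% and 59.4% without members with oligodendroglial UMIs. In the last setting cholesterol synthesis had 5 genes lower (7 in the full gate) and fatty acid oxidation 2 (4), and with thinned cells immediate-early genes had 4 higher (6) and imprinted genes 1 lower (3).

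The P22 sum is the shallowest, so a gene under 2.48 CPM there had fewer than 3 UMIs, and low genes limit every ratio. With 1 library at P2 and P22, age cannot be told apart from the library, the pooled animals or, for the female cells, sex.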

Other observations

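Genes of protein synthesis and respiration were called in neither direction, though most of the nuclear-encoded ones were somewhat lower at P22. Of 80 cytosolic ribosomal protein genes 0 were called, against 13.8% of all genes tested, with a median log2 ratio of -0.41. Their summed level was 99104 CPM at P2, 57393 and 57033 at P12 and 73230 at P22. The ratio was below 0 for 76 of these 80 genes, against 3754 of all 6904. Malat1, called higher and named after its values were seen, was at 48162, 91587, 83703 and 101385 CPM in the same order. Of 83 nuclear genes of oxidative phosphorylation 0 were called and 65 were below 0, with a median of -0.33. Of 12 mitochondrially encoded genes 0 were called, with a median of 0.22. The sums of the first 2 sets were lowest at P12.

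Some called genes lay beside each other and moved the same way. Mt1 and Mt2 are neighbours, as are Olig1 and Olig2. Clu and Scara3, a scavenger receptor gene, lie 14547 bases apart on opposite strands, and Scara3 was at 41.7 CPM at P2, 191 and 175 at P12 and 103 at P22. Beside Thbs4, Mtx3 was at 18.8, 72.3, 77.1 and 61.1 CPM.

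Within an age a few genes also differed widely. Trim12a was at 0.562 CPM in P12 replicate 1 and 57.9 CPM in P12 replicate 2. Etaa1os was at 26.0 and 0.729 CPM in the same replicates. At P2, Mgarp had 0 UMIs in members with Xist and no Y-linked UMI and 38.4 CPM in members with a Y-linked and no Xist UMI.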
